A study of Mus musculus with 4 samples.

Results

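TRBV15, TRBV16 and TRBV17 are neighbouring V segments in the middle of the mouse T-cell receptor β (TRB) locus, and 3 of the 26 TRBV segments listed in these data. A rearrangement was assigned to a segment when its first-listed V hit, without the allele number, was TRBV15, TRBV16 or TRBV17. The main set holds in-frame rearrangements, whose CDR3 is read without a frameshift or stop codon. Out-of-frame rearrangements, which encode no receptor, served as the reference. A clonotype is a distinct nucleotide sequence of CDR3 together with its V and J segments. There were 1472 in-frame clonotypes of TRBV15, 4465 of TRBV16 and 8607 of TRBV17, together 14544 of 238470. Out-of-frame clonotypes numbered 126, 199 and 837, together 1162 of 22386. Another 33 rearrangements of the 3 segments kept the frame but held a stop codon and were counted in neither set.

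The cells were CD8+ T cells (DAPI-, CD45+, CD3+, CD8+) sorted from livers bearing metastases of MC38, known as a colon adenocarcinoma line of the mouse though the labels call it a melanoma, 14 days after injection. A group of 2 wild-type (WT) libraries was compared with a group of 2 libraries from Vsig4-/- mice (VSIG4 KO). Vsig4 encodes a complement receptor of Kupffer cells, the macrophages of the liver, so the deficiency lies in the host and not in a gene of the T-cell receptor. All 4 libraries came from tumour-bearing livers, and no tumour-free group was compared. The labels give neither the strain, sex or age of the mice, nor the nature of the Vsig4 allele. Nothing in them says that libraries of 1 genotype came from separate animals, so each p-value measures only the spread between these samples, which may be technical. The tables list TRB rearrangements, and transcripts of Cd8a, Cd8b1 or Vsig4 were not measured here. In bulk RNA, fewer cells of a clone and less receptor RNA per cell cannot be told apart.

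A TRB chain is built by joining a V, a D and a J segment. Exonucleases trim the ends, terminal transferase adds bases without a template, and the joined stretch encodes CDR3, the loop that lies over the peptide held by an MHC molecule. A thymocyte whose first rearrangement is out of frame can try again on its other chromosome, so T cells can carry an out-of-frame rearrangement beside the one that encodes their receptor. No selection on the protein acts upon it. In older nomenclature TRBV15 encodes Vβ12, TRBV16 encodes Vβ11 and TRBV17 encodes Vβ9, names that antibody panels still use. Vβ11 and Vβ12 are known from the classic work on retroviral superantigens, which remove T cells bearing them in mouse strains that express the class II molecule I-E.

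RefSeq places the 3 segments on chromosome 6 of GRCm38.p6, a patch release of the mm10 genome. Trbv15 spans positions 41141211 to 41141658, Trbv16 41151791 to 41152230 and Trbv17 41163092 to 41163556. Each is annotated as a V segment, with 10133 bases between the first pair and 10862 bases between the second. Trbv13-3 and Trbv14 lie on one side, and Trbv19 and Trbv20 on the other. The V ends that enter CDR3 are shown here because they set the first residues of the loop and differ between the segments. Each was read from clonotypes with an untrimmed V end, 5′ to 3′ from the conserved cysteine codon, and the capitals mark the codon for residue 5 of CDR3, counted from that cysteine:
TRBV15: tgtgccagcagtTTAgc
TRBV16: tgtgcaagcagcTTAga
TRBV17: tgtgctagcagtAGAga
All 3 ends were 17 bases long. The capitalised codon reads leucine in TRBV15 and TRBV16 and arginine in TRBV17. The sequence shown was that of 43 of 49 untrimmed rearrangements of TRBV15, 722 of 749 of TRBV16 and 1533 of 1590 of TRBV17.

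The libraries held 901567 to 1269480 counts and 47017 to 73769 in-frame clonotypes each. Clonotypes with 1 count made up 33.0% of all in-frame clonotypes in Vsig4-deficient library 2 and 17.6% to 21.4% in the other libraries. That library also had the highest ratio of in-frame to out-of-frame clonotypes over all TRBV, at 14.2 against 9.42 to 9.95. Results that turn on it, or on Vsig4-deficient library 1, are given with and without it. Where 4 values follow each other, they are in the order wild-type 1, wild-type 2, Vsig4-deficient 1, Vsig4-deficient 2.

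The first question was how much of the repertoire the 3 segments supplied, and whether this differed with Vsig4 genotype. TRBV17 was the most used of the 3, TRBV16 followed, and TRBV15 was rare. Counted once per clonotype, TRBV17 held 3.53%, 3.54%, 3.61% and 3.73% of in-frame clonotypes. TRBV16 held 2.19%, 1.92%, 2.08% and 1.47%. TRBV15 held 0.757%, 0.678%, 0.778% and 0.351%. The order TRBV17, TRBV16, TRBV15 was the same in every library, with no overlap between the segments, and among the 26 TRBV they ranked 12th, 16th and 18th by pooled in-frame clonotypes. The neighbours ranged more widely, from 9.46% ± 0.887 (SD, n = 4) for TRBV13-3 and 4.03% ± 0.693 for TRBV19 to 3.76% ± 0.16 for TRBV14 and 0.436% ± 0.112 for TRBV20.

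Weighted by counts, TRBV15 and TRBV16 supplied far less than their number of clonotypes. TRBV15 held 0.0759%, 0.109%, 0.149% and 0.0486% of in-frame counts. TRBV16 held 0.227%, 0.349%, 0.281% and 0.198%. TRBV17 held 2.48%, 3.18%, 3.04% and 2.70%, close to its share of clonotypes. By counts the libraries of the genotypes separated for 0 of the 3 segments, against 12 of 24 TRBV (50%).

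**Figure D1:**
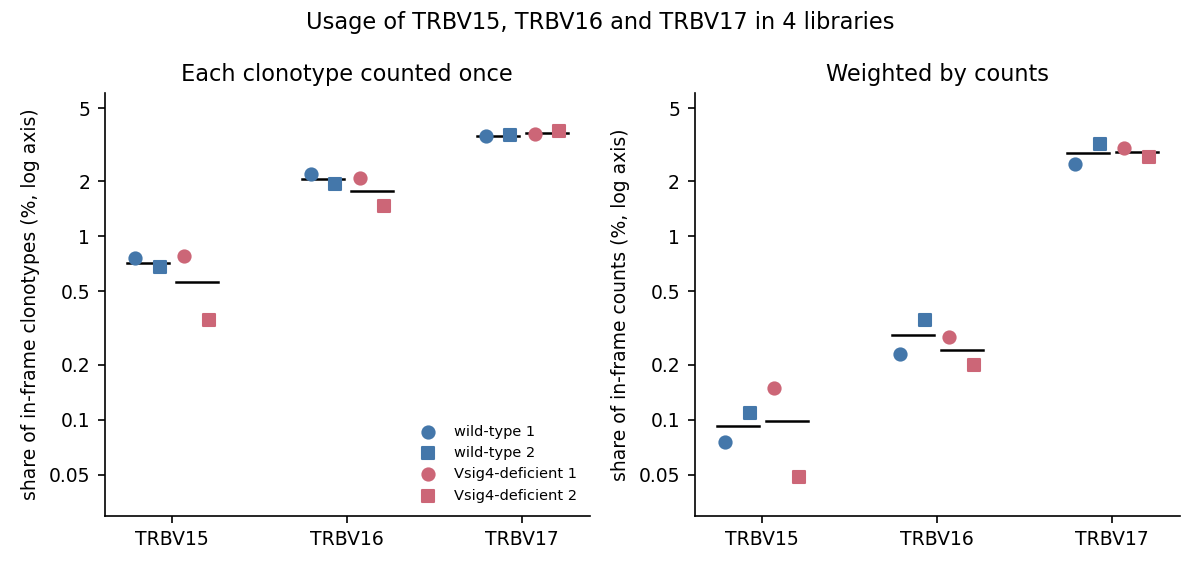
Share of in-frame clonotypes (left) and of in-frame counts (right) held by TRBV15, TRBV16 and TRBV17, in percent on log axes; each point is 1 library and each bar the mean of 2 libraries of a genotype. TRBV15 and TRBV16 sit lower by counts than by clonotypes, TRBV17 stays between 2.48% and 3.73% in both, and Vsig4-deficient 2 is the lowest library for TRBV15 and TRBV16.

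No segment of the 3 changed with genotype in the fit over all libraries. By clonotypes, edgeR's quasi-likelihood test gave a log2 ratio (Vsig4-deficient over wild-type) of -0.35 ± 0.41 (SE) for TRBV15 (adjusted p = 0.609) and of -0.21 ± 0.20 for TRBV16 (adjusted p = 0.551). For TRBV17 it was 0.05 ± 0.08 (edgeR adjusted p = 0.609). The test called 0 of the 3, and 0 of 23 TRBV tested (0%). At an unadjusted p under 0.05 these counts were also 0, and DESeq2 called 0 of the 3. For TRBV17 the genotypes separated, with the Vsig4-deficient libraries higher, a separation that 10 of 23 TRBV showed in either direction (43.5%). For TRBV15 and TRBV16 the result depended on which Vsig4-deficient library was kept. Without Vsig4-deficient library 1 the log2 ratio was -1.02 for TRBV15 and -0.48 for TRBV16 (edgeR adjusted p = 0.0114 for both), with the spread of the lone Vsig4-deficient library taken from the wild-type pair. In that fit 13 of 23 TRBV were called (56.5%). Without Vsig4-deficient library 2 both turned positive, to 0.12 and 0.02 (edgeR adjusted p = 0.993 for both). The lower means therefore came from Vsig4-deficient library 2.

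By counts the log2 ratios were 0.10 ± 0.72 (SE) for TRBV15, -0.27 ± 0.59 for TRBV16 and 0.02 ± 0.34 for TRBV17 (edgeR adjusted p = 0.932, 0.829 and 0.952). edgeR called 0 of the 3 and 0 of 24 TRBV (0%), with 0 of the 3 and 4 of 24 at an unadjusted p under 0.05, and 0 of the 3 by DESeq2. The standard errors reached 0.72 on the log2 scale, so a change in TRBV15 had to be well above that size to be called. Among out-of-frame clonotypes the log2 ratios were -0.20 ± 0.34, 0.05 ± 0.32 and -0.0044 ± 0.21 (edgeR adjusted p = 0.983 for each). Here too edgeR called 0 of the 3 and 0 of 24 TRBV (0%), with 0 of the 3 at an unadjusted p under 0.05 and 0 by DESeq2.

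The next comparison set in-frame against out-of-frame clonotypes within each library. It shows how often a segment was listed among encoded receptors relative to its listed unselected rearrangements. TRBV16 stood out from the other 2. Its ratio of in-frame to out-of-frame clonotypes was 23.2, 22.1, 19.1 and 26.4. TRBV15 had 9.73, 13.5, 12.2 and 11.2, and TRBV17 had 9.12, 9.27, 8.13 and 16.1. All other TRBV together had 9.86, 9.47, 9.35 and 14.1. Every library of TRBV16 therefore lay above the ratio of the other TRBV in the same library, while TRBV15 lay above it in 2 of 4 libraries and TRBV17 in 1 of 4.

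As a share of the repertoire, TRBV16 rose from 0.942%, 0.832%, 1.02% and 0.792% of out-of-frame clonotypes to the in-frame shares given above. The log2 ratio of its share, in-frame over out-of-frame, was 1.10 ± 0.12 (SE), or 2.15-fold (edgeR adjusted p = 9.83e-14, higher in 4 of 4 libraries). For TRBV15 it was 0.19 ± 0.16 (edgeR adjusted p = 0.322) and for TRBV17 -0.05 ± 0.07 (edgeR adjusted p = 0.516). The test called 1 of the 3 segments, and 15 of 24 TRBV in all (62.5%), of which 7 were higher in frame (29.2%), so that a called difference was common in this comparison. Its size placed TRBV16 at rank 3 of 24 TRBV by pooled ratio, at 22.4, and at rank 2 or 3 in each library. Above it by pooled ratio were TRBV14, its neighbour but one (24.2), and TRBV12-2 (23.9). Of the fixed neighbours, TRBV14 (log2 1.19 ± 0.09) and TRBV13-3 (0.53 ± 0.05) also rose (edgeR adjusted p = 9.74e-21 and 1.96e-14), while TRBV19 was at 0.08 (edgeR adjusted p = 0.340) and TRBV20 at -0.07 (edgeR adjusted p = 0.726).

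**Figure D2:**
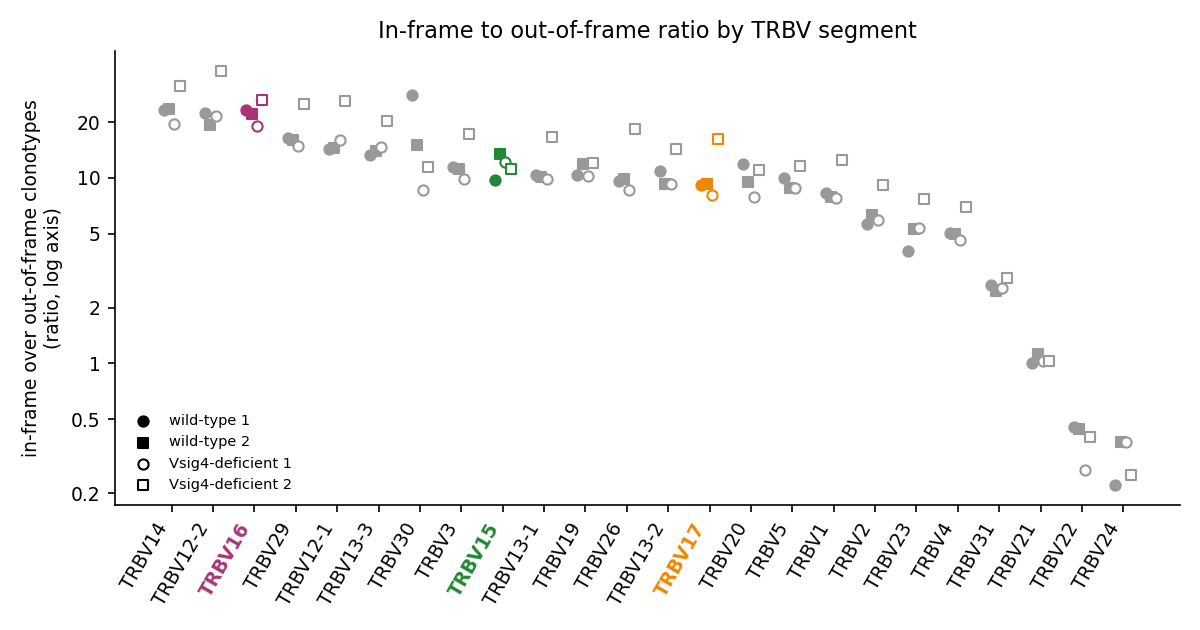
Ratio of in-frame to out-of-frame clonotypes for 24 TRBV segments, ordered by the ratio pooled over libraries, on a log axis; each point is 1 library, filled for wild-type and open for Vsig4-deficient. TRBV16 lies between 19.1 and 26.4 in all libraries, TRBV15 between 9.73 and 13.5, and TRBV17 between 8.13 and 16.1.

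The ratios rest on few out-of-frame clonotypes, namely 22 to 37 per library for TRBV15, 39 to 64 for TRBV16 and 162 to 282 for TRBV17. Those of TRBV16 had on average only 1.69, 1.42, 2.39 and 1.74 counts, so the number listed is limited by depth. The ratio was not tested at equal depth. The genotypes did not differ in the ratio beyond the spread of libraries (two-sided exact permutation p = 1 for each segment, where 0.333 is the smallest p that 2 against 2 libraries allow). The difference in means (Vsig4-deficient minus wild-type) was 0.0693 for TRBV15, 0.146 for TRBV16 and 2.94 for TRBV17. The sign depended on which library was left out. Without 1 library in turn, the difference ranged from -1.82 (without wild-type 1) to 1.96 (without wild-type 2) for TRBV15. For TRBV16 it ranged from -3.50 to 3.8 and for TRBV17 from -1.07 to 6.95, lowest without Vsig4-deficient 2 and highest without Vsig4-deficient 1.

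The J segments joined to each V were compared with those joined to all other TRBV in the same libraries, with the library as a block. TRBJ1 and TRBJ2 are the clusters of J segments that lie downstream of the V array, each after a D segment. TRBV17 and TRBV16 used the TRBJ1 cluster less than other TRBV did, and TRBV15 differed less. TRBJ1 segments were joined to 20.4%, 21.2%, 23.0% and 18.8% of TRBV17 clonotypes. In TRBV16 the shares were 20.4%, 23.4%, 22.2% and 24.7%, and in TRBV15 25.6%, 24.6%, 26.8% and 30.9%. All other TRBV, pooled within each library, ranged from 31.3% to 32.9%, above every library of the 3 segments. This pooled share does not show whether single other TRBV were as low. The J profiles of TRBV4 and TRBV14 were near that of TRBV16, and that of TRBV14 was near TRBV17, as given below.

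Of 257 V-J pairs tested over all TRBV, edgeR called 114 (44.4%), 57 in each direction (22.2% each). Against that, it called 9 of 12 TRBJ in TRBV17, 6 of 12 in TRBV16 and 2 of 12 in TRBV15, which has the fewest clonotypes of the 3. In TRBV17 all 6 TRBJ1 segments were lower and 3 of 6 TRBJ2 segments higher. TRBJ1-2 was joined to 3.02% ± 0.326 (SD, n = 4) of TRBV17 clonotypes against a mean of 6.62% elsewhere (log2 -1.14, edgeR adjusted p = 1.33e-07). TRBJ1-6 was joined to 1.42% ± 0.144 against 3.10% (log2 -1.14, edgeR adjusted p = 4.40e-07), and TRBJ1-5 to 1.3% ± 0.380 against 2.55% (log2 -0.96, edgeR adjusted p = 1.86e-05). TRBJ1-3, TRBJ1-1 and TRBJ1-4 fell less, by 0.51, 0.37 and 0.33 on the log2 scale (edgeR adjusted p = 0.0033, 0.00168 and 0.0141). Without wild-type library 2 these 3 no longer passed, at edgeR adjusted p between 0.0644 and 0.150, and TRBJ1-4 was also lost without wild-type library 1 (edgeR adjusted p = 0.10) and with TMM scaling (edgeR adjusted p = 0.0874). The TRBJ2 segments that rose in TRBV17 were TRBJ2-2, with 9.18% ± 0.491 against 5.66% (log2 0.70, edgeR adjusted p = 2.52e-06), TRBJ2-5, with 15.5% ± 0.945 against 12% (log2 0.38, edgeR adjusted p = 7.96e-05), and TRBJ2-1, with 17.8% ± 2.58 against 14.1% (log2 0.33, edgeR adjusted p = 0.000408).

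In TRBV16 the lower segments were TRBJ1-6, with 1.43% ± 0.490 (SD, n = 4) against 3.08% (log2 -1.12), TRBJ1-2, with 3.98% ± 0.782 against 6.54% (log2 -0.72), TRBJ1-1 (log2 -0.49) and TRBJ1-5 (log2 -0.49). Their edgeR adjusted p values were 0.000108, 9.17e-05, 0.000603 and 0.013. The TRBJ1-5 call was lost without wild-type library 1 (edgeR adjusted p = 0.0650), with TMM scaling (edgeR adjusted p = 0.0665) and without 1-count clonotypes (edgeR adjusted p = 0.0741). TRBJ2-4 rose to 11.6% ± 1.49 of TRBV16 clonotypes against 8.64% (log2 0.43, edgeR adjusted p = 0.00141), and TRBJ2-5 to 15.5% ± 1.18 against 12% (log2 0.36, edgeR adjusted p = 0.00105). In TRBV15 the 2 called segments were both lower. TRBJ1-2 was joined to 4.22% ± 1.18 of TRBV15 clonotypes against 6.51% (log2 -0.69, edgeR adjusted p = 0.00565), and TRBJ2-5 to 7.89% ± 1.08 against 12.1% (log2 -0.62, edgeR adjusted p = 0.000188). TRBJ2-5 was thus lower in TRBV15 and higher in TRBV16 and TRBV17 than elsewhere. The TRBJ1-2 call in TRBV15 was lost without wild-type library 2 (edgeR adjusted p = 0.0996) and without 1-count clonotypes (edgeR adjusted p = 0.0519), and the number called in TRBV15 was 1 without that library and 4 without Vsig4-deficient library 2.

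**Figure D3:**
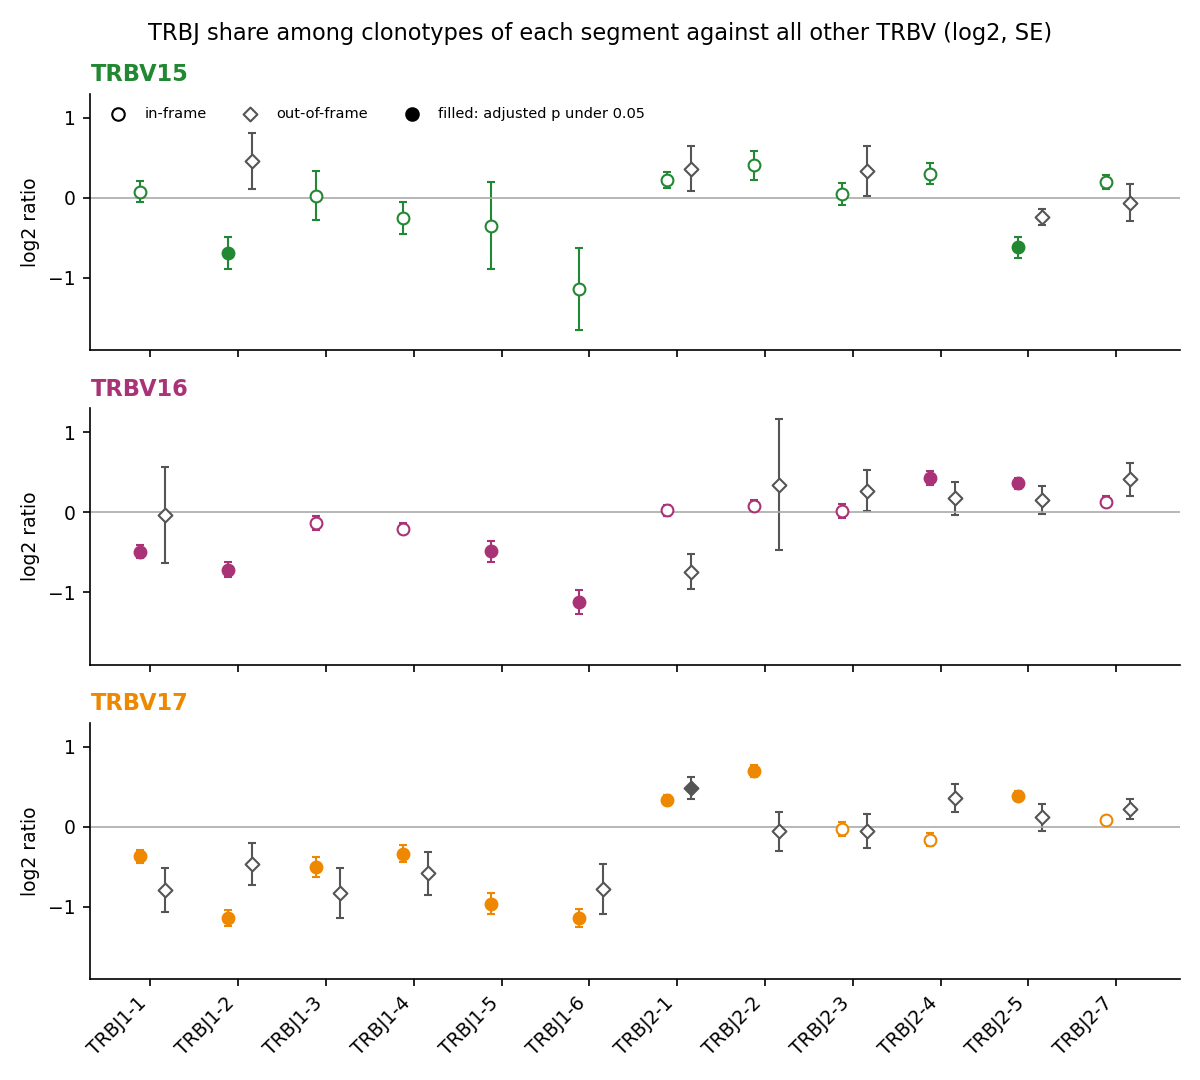
Log2 ratio of the share of each TRBJ among clonotypes of TRBV15, TRBV16 and TRBV17 over its share among all other TRBV (vertical axes), for in-frame (circles) and out-of-frame (diamonds) clonotypes, with SE; filled symbols have an edgeR adjusted p under 0.05, and pairs with fewer than 10 out-of-frame clonotypes are left out. All 6 TRBJ1 segments lie below 0 for in-frame clonotypes of TRBV16 and TRBV17.

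Out-of-frame clonotypes gave the same comparison on rearrangements without selection on the protein. Over all TRBV edgeR called 7 of 228 such pairs (3.07%). TRBV17 had 1 of 11 tested TRBJ called, TRBJ2-1, which was higher in both sets (log2 0.48 out of frame, edgeR adjusted p = 0.0458). Of the 9 TRBJ called in frame in TRBV17, 8 could be tested out of frame and 7 of these had the same sign; all 5 tested TRBJ1 segments were below 0. TRBJ1 segments held 16.8%, 18.4%, 17.2% and 22.2% of out-of-frame TRBV17 clonotypes, 11.9 ± 1.83 percentage points (SD, n = 4) below other TRBV and lower in 4 of 4 libraries. TRBJ2-2, the most raised in frame, was at a log2 ratio of -0.06 out of frame (edgeR adjusted p = 0.912). In TRBV16, 3 of the 6 called TRBJ could be tested out of frame, and all 3 kept their sign without a call. In TRBV15 TRBJ1-2 was at 0.46 out of frame (edgeR adjusted p = 0.669), the opposite sign to the in-frame value, and TRBJ2-5 at -0.24 (edgeR adjusted p = 0.783), the same sign. The out-of-frame TRBJ1 share differed from that of other TRBV by -6.30 ± 4.70 percentage points in TRBV16 and by -0.24 ± 2.97 in TRBV15. It was higher than in other TRBV in 1 of 4 libraries for TRBV16 and in 2 of 4 for TRBV15. Whether in-frame and out-of-frame pairing differed was not tested.

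The V segments most like each of the 3 in their J profile were found by total variation distance, which is 0 for equal and 1 for disjoint profiles, over the mean shares of 12 TRBJ in 4 libraries and among 21 other TRBV. TRBV17 was nearest to TRBV16 (0.0704) and TRBV14 (0.0781). TRBV16 was nearest to TRBV4 (0.0507) and TRBV14 (0.0671), and TRBV15 to TRBV20 (0.0794) and TRBV14 (0.0842). TRBV14, which lies next to TRBV15, was thus second for all 3.

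No V-J pair of the 3 segments differed between genotypes. edgeR called 0 of their 36 pairs and 0 of 259 over all TRBV (0%), with 0 of the 36 and 9 of 259 at an unadjusted p under 0.05, and 0 of the 36 called by DESeq2. Without Vsig4-deficient library 1, 16 of the 36 passed, against 85 of 254 over all TRBV (33.5%).

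At the junction, TRBV15 lost more of its V end than TRBV16, TRBV17 or the other TRBV. On average 4.36, 4.10, 4.18 and 4.33 bases were removed from TRBV15. The means over libraries were 3.01 ± 0.0432 (SD, n = 4) for TRBV16, 3.08 ± 0.0439 for TRBV17 and 2.46 ± 0.0219 for all other TRBV. An untrimmed V end was found in 2.97% ± 0.447 of TRBV15 clonotypes, 16.1% ± 0.607 of TRBV16, 16.6% ± 0.578 of TRBV17 and 25.8% ± 0.171 of the others. The most frequent loss was 6 bases in TRBV15 (26.8% of clonotypes), 5 in TRBV16 (24.6%) and 3 in TRBV17 (21.6%).

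Out-of-frame clonotypes gave the same order at the V end. TRBV15 lost 4.47 ± 0.207 bases there (SD, n = 4), TRBV16 3.11 ± 0.20 and TRBV17 3.31 ± 0.352, against 2.41 ± 0.0505 in all other TRBV. TRBV15 lost more than the pooled other TRBV in 4 of 4 libraries in both sets, by 1.75 ± 0.14 bases in frame and 2.02 ± 0.247 out of frame. The most frequent loss out of frame was again 6 bases in TRBV15 (24.6%) and 5 in TRBV16 (26.6%), whereas in TRBV17 it was 0 (19.6%). Added bases were read as those between the aligned segments. They numbered 3.38 ± 0.126 for TRBV15, 3.17 ± 0.119 for TRBV16, 3.18 ± 0.0543 for TRBV17 and 3.26 ± 0.0224 for the others. Where no D segment was aligned, every base between V and J was counted as added, and whether these held D remnants was not tested. Trimming is read from the alignment, and a removed base that was restored by chance counts as kept.

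**Figure D4:**
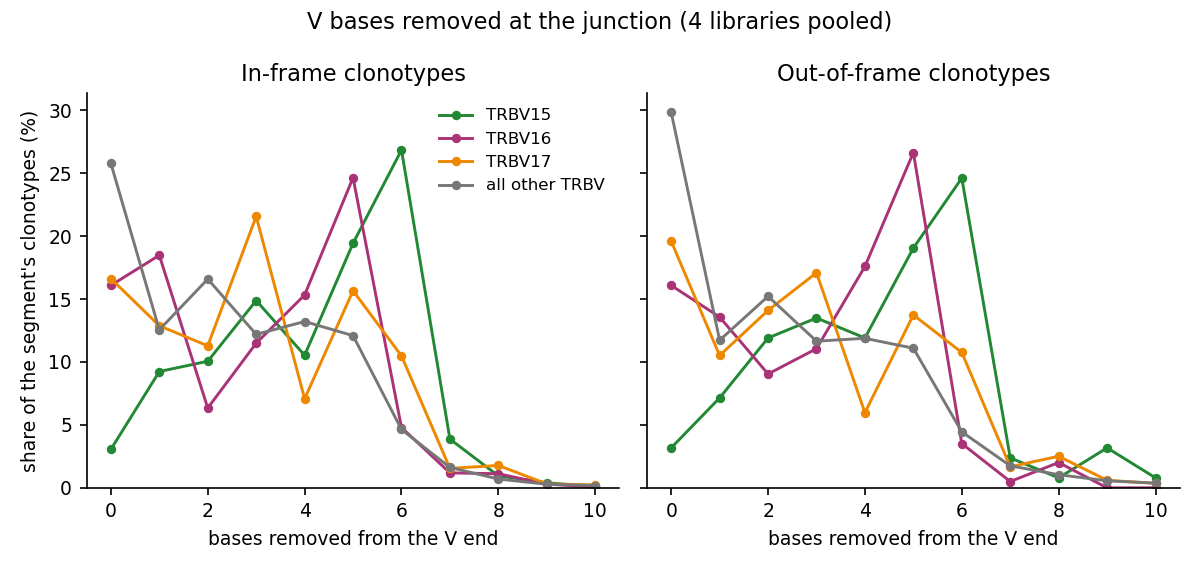
Distribution of the number of bases removed from the V end (horizontal axis, up to 10) as a share of each segment's clonotypes in percent (vertical axis), for in-frame and out-of-frame clonotypes of 4 libraries pooled. TRBV15 peaks at 6 bases, TRBV16 at 5 and TRBV17 at 3 in frame, whereas the other TRBV peak at 0.

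The first residues of the loop differed between the segments. Leucine stood at residue 5 in 47.2% ± 1.49 (SD, n = 4) of TRBV16 and 32.1% ± 2.50 of TRBV15 clonotypes, against 2.38% ± 0.236 in TRBV17 and 20.8% ± 0.716 in the other TRBV. Arginine stood there in 52.9% ± 1.17 of TRBV17 clonotypes, against 9.12% ± 0.795 in TRBV15, 3.71% ± 0.365 in TRBV16 and 4.57% ± 0.182 in the others. At least 15 V bases, which complete the codon for residue 5 in capitals above, were kept in 41.0% ± 1.41 of TRBV16, 40.6% ± 1.35 of TRBV17 and 22.2% ± 2.90 of TRBV15 clonotypes. The CASS start was found in 94.4% ± 0.416 of TRBV16, 89.2% ± 1.16 of TRBV17 and 80.8% ± 0.257 of TRBV15 clonotypes.

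CDR3 loops were shorter with TRBV15 and slightly longer with TRBV16 and TRBV17. Their mean length in amino acids, from the conserved cysteine to phenylalanine, was 13.6, 13.6, 13.7 and 13.7 in TRBV15 and 14.1, 14.1, 14.2 and 14.1 in TRBV16. In TRBV17 it was 14.0, 14.0, 14.1 and 14.1. Against every other TRBV in the same library, TRBV15 loops differed by -0.281 ± 0.0433 residues (SD, n = 4), lower in 4 of 4 libraries. TRBV16 loops were 0.177 ± 0.0483 and TRBV17 loops 0.115 ± 0.0286 residues longer, each in 4 of 4 libraries. A sign-flip permutation test gave the smallest p that 4 libraries allow, 0.13, for each segment, so the design cannot pass 0.05. Loops of 13 residues or fewer made up 43.3% ± 2.19 of TRBV15, 30.4% ± 1.61 of TRBV16, 30.9% ± 0.785 of TRBV17 and 34.2% ± 0.357 of other clonotypes. Out of frame, the CDR3 of TRBV15 differed from other TRBV by -0.99 ± 0.55 bases, shorter in 4 of 4 libraries. That of TRBV16 differed by 0.41 ± 0.90 bases, longer in 2 of 4 libraries. For TRBV17 the difference was -0.32 ± 0.41 bases, longer in only 1 of 4, so its longer loops were seen in frame only.

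Between genotypes the mean length differed by 0.0824 residues in TRBV15, 0.0390 in TRBV16 and 0.0537 in TRBV17 (Vsig4-deficient minus wild-type). The two-sided exact permutation p was 0.333, 0.667 and 0.333, where 0.333 is the smallest possible. Both Vsig4-deficient libraries had longer loops than both wild-type libraries for TRBV15 and TRBV17, with means that differed by under 0.1 residues. How many of all TRBV separated in length was not counted, so this cannot be read as a trait of these segments.

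The final comparison concerned clone size, read as counts per clonotype. TRBV15 and TRBV16 clonotypes were small in every library. An in-frame TRBV15 clonotype had on average 1.84, 1.87, 3.91 and 2.43 counts, and a TRBV16 clonotype 1.91, 2.11, 2.76 and 2.36. A TRBV17 clonotype had 12.9, 10.4, 17.1 and 12.7, and one of all other TRBV 19.1, 11.9, 21.0 and 18. Relative to every other TRBV in the same library, the mean was 0.147 ± 0.0383 (SD, n = 4) for TRBV15, 0.137 ± 0.0317 for TRBV16 and 0.785 ± 0.0959 for TRBV17.

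The median clonotype of TRBV15 and of TRBV16 had 1 count in each library, and that of TRBV17 had 7, 6, 6 and 3. Clonotypes with 1 count made up 51.9% to 62.2% of TRBV15 and 54.0% to 59.8% of TRBV16, against 15.9% to 32.9% of TRBV17 and 16.6% to 32.5% of all other TRBV. Among 22 TRBV, TRBV15 had the lowest mean count per clonotype in both wild-type libraries and ranked 5 and 4 from the lowest in the Vsig4-deficient ones. TRBV16 ranked 3, 5, 3 and 3 from the lowest. Their neighbour TRBV20 was as low, at 1.92 ± 0.0971 counts (SD, n = 4), TRBV19 had 4.00 ± 0.633 and TRBV13-3 had 33.7 ± 11.2.

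Low counts were also found among out-of-frame clonotypes. Out-of-frame clonotypes of TRBV15 had 2.16 ± 1.16 counts (SD, n = 4) and those of TRBV16 1.81 ± 0.412, against 5.94 ± 3.34 in TRBV17 and 7.79 ± 1.4 in all other TRBV. How efficiently each V segment was amplified was not tested. With a median of 1 count, the number of TRBV15 and TRBV16 clonotypes listed is limited by depth.

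**Figure D5:**
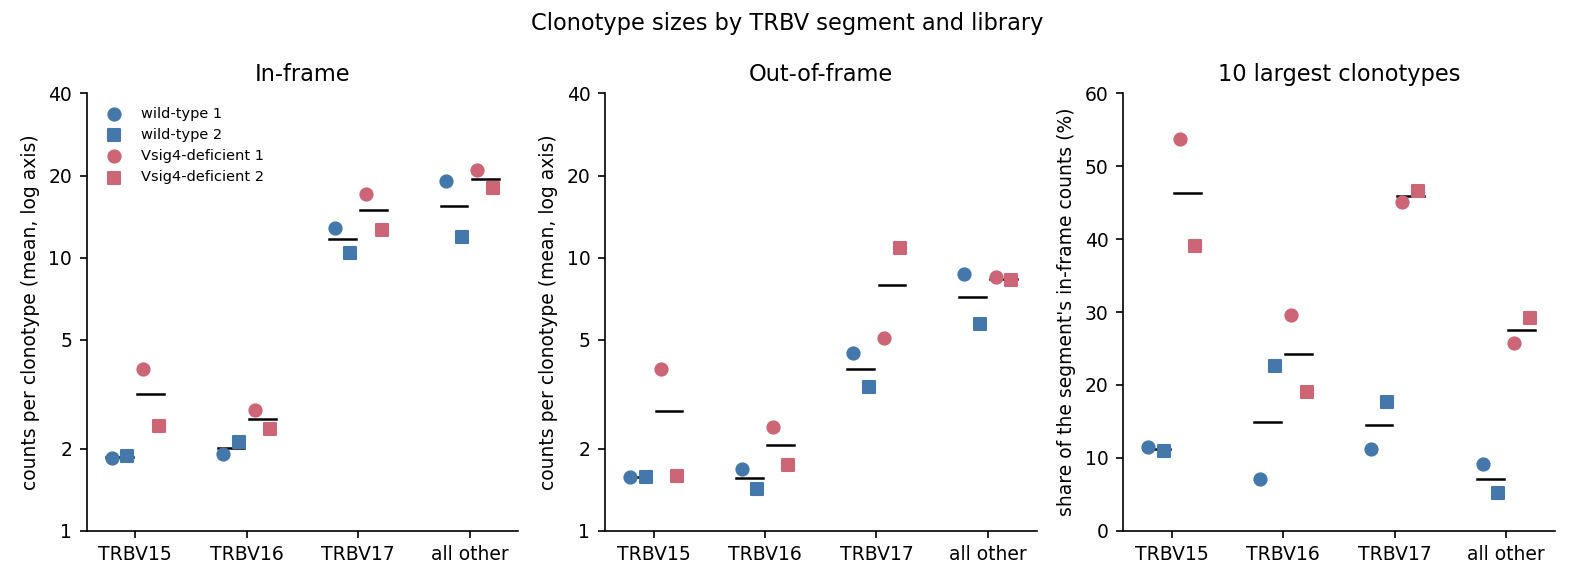
Mean counts per in-frame clonotype (left) and per out-of-frame clonotype (middle), on log axes, and share of the in-frame counts of a segment in its 10 largest clonotypes in percent (right), for TRBV15, TRBV16, TRBV17 and all other TRBV; points are libraries and bars means of 2. TRBV15 and TRBV16 lie between 1.42 and 3.91 counts in both frames, and both Vsig4-deficient libraries lie above both wild-type libraries in the right panel for TRBV15, TRBV17 and all other TRBV.

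Within TRBV17 and TRBV15, counts were more concentrated in the Vsig4-deficient libraries. The 10 largest TRBV17 clonotypes held 11.3%, 17.7%, 45.1% and 46.6% of TRBV17 counts. For TRBV15 the shares were 11.4%, 10.9%, 53.7% and 39.0%. For TRBV16 they were 7.13%, 22.6%, 29.6% and 19.0%, and the genotypes overlapped. The two-sided exact permutation p was 0.333, 0.333 and 0.667 for TRBV17, TRBV15 and TRBV16, and 0.333 is the smallest possible. All other TRBV showed the same separation, with 9.18%, 5.13%, 25.7% and 29.2%, so it was not particular to these segments.

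Large clonotypes of each segment are given with their CDR3, because a few of them carry this concentration. Capitals mark bases at the junctions that were aligned to neither the V, the D nor the J segment, and sequences run 5′ to 3′:
TRBV17, Vsig4-deficient 2, TRBJ2-2: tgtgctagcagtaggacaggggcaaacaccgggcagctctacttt
TRBV17, Vsig4-deficient 1, TRBJ1-4: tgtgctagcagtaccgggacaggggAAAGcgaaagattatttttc
TRBV17, wild-type 2, TRBJ2-5: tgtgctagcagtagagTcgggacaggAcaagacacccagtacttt
TRBV17, wild-type 1, TRBJ2-1: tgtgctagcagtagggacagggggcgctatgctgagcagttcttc
TRBV16, wild-type 2, TRBJ2-7: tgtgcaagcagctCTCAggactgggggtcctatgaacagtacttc
TRBV15, Vsig4-deficient 1, TRBJ1-1: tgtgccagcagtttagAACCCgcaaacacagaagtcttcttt
TRBV15, Vsig4-deficient 2, TRBJ1-1: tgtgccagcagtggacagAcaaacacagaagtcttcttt
The TRBV17 clonotypes of Vsig4-deficient 2 and wild-type 1 held 0 added bases, and the TRBV15 clonotype of Vsig4-deficient 1 held 5, with no D segment aligned.

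The TRBV17-TRBJ2-2 clonotype of Vsig4-deficient library 2 had 11155 counts, which was 0.908% of all in-frame counts (95% Wilson interval 0.892 to 0.925) and 33.6% of TRBV17 counts. Only 5 clonotypes of that library were larger. It also had 1361 counts in the other Vsig4-deficient library and 0 in the wild-type pair. The largest TRBV17 clonotype of Vsig4-deficient library 1 had 3772 counts (0.394%, 95% Wilson interval 0.381 to 0.406) and 73 in the other. That of wild-type library 2 had 3217 counts (0.375%, 95% Wilson interval 0.362 to 0.388), and that of wild-type library 1 had 963 (0.110%, 95% Wilson interval 0.103 to 0.117). For large clonotypes of all 3 segments, the origin of their counts in the other library of the same genotype was not tested. Clonotypes above 0.1% of in-frame counts numbered 1, 1, 5 and 1 in TRBV17, with 0 in each library in TRBV15 and TRBV16. Without its largest clonotype, TRBV17 held 1.81% of in-frame counts in Vsig4-deficient library 2 in place of 2.70%. The intervals hold for counting error alone, because PCR makes many copies of 1 transcript.

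In TRBV15 the largest clonotype, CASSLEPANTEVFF, had 0, 0, 390 and 5 counts in the 4 libraries. It made up 27.3% of TRBV15 counts in Vsig4-deficient library 1. The largest of Vsig4-deficient library 2, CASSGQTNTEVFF, had 68 counts there and 0 elsewhere, and those of the wild-type libraries had 10 and 14. These used TRBJ1-1, except that in wild-type library 2 a TRBJ2-4 clonotype had the same 14 counts. By counts, TRBJ1 segments held 25.5%, 24.8%, 52.9% and 44.7% of TRBV15, a separation of the genotypes (exact permutation p = 0.333, the smallest possible). The clonotype shares of 24.6% to 30.9% did not approach it in size. A few clonotypes weigh heavily here. In Vsig4-deficient library 1, TRBJ1-1 clonotypes with 390 and 186 counts were part of only 1431 TRBV15 counts. In Vsig4-deficient library 2, a TRBJ1-1 clonotype held 68 of 597. How many of all TRBV separated in this share was not counted, so it cannot be read as a trait of TRBV15. In TRBV16 the largest clonotype had 47 counts in wild-type 1 (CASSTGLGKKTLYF), 251 in wild-type 2 and 212 in Vsig4-deficient 1.

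Sharing between libraries was described for CDR3 amino acid sequences with the same V and J. It was rarest in TRBV15, where 40 of 1421 sequences (2.81%, 95% Wilson interval 2.07 to 3.81) were listed in 2 or more libraries. In TRBV16 it was 220 of 4101 (5.36%, 95% Wilson interval 4.72 to 6.10) and in TRBV17 846 of 7224 (11.7%, 95% Wilson interval 11 to 12.5), against 27264 of 173556 (15.7%, 95% Wilson interval 15.5 to 15.9) in all other TRBV. The intervals treat each sequence as independent and leave out the spread between libraries. Sequences in all 4 libraries numbered 0 in TRBV15, 7 in TRBV16 and 29 in TRBV17. These shares rise with the number and the counts of clonotypes, which differ between the segments. Vsig4-deficient libraries 1 and 2 shared 300 TRBV17 sequences (18.2% and 12% of theirs) and the wild-type libraries 232 (14.3% and 9.39%). Pairs across genotypes shared 89 to 249, which was 5.40% to 11.4% of theirs and overlapped the wild-type pair. In TRBV16 the Vsig4-deficient pair shared 64 sequences, the wild-type pair 59 and pairs across genotypes 43 to 58. In TRBV15 these numbers were 7, 13 and 2 to 9. Sharing by pair was not counted for the other TRBV, so it cannot be read as a trait of TRBV17.

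The sequences of TRBV16 and TRBV17 with the highest mean share among those in all 4 libraries are given in the nucleotide form with most counts, with added bases in capitals:
TRBV16, TRBJ2-4: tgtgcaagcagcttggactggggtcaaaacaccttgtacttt
TRBV16, TRBJ2-1: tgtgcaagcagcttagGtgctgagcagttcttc
TRBV17, TRBJ1-3: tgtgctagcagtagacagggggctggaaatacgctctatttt
The first encodes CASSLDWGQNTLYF, with 2, 4, 1 and 13 counts. The next, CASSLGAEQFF, was encoded by 4 nucleotide sequences and had 6, 3, 4 and 4 counts. The third, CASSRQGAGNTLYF, had 5, 520, 1 and 5. The most abundant TRBV17 sequence of this kind was the TRBV17-TRBJ2-5 clonotype of wild-type library 2 printed above, with 25, 3217, 2 and 4 counts. Apart from the 2 expanded clonotypes of wild-type library 2, these sequences were low in each library. Each of those 2 had 1 nucleotide sequence, and the origin of its low counts in the other libraries was not tested. Rearrangements of sequences in all 4 libraries held few added bases, with a mean of 1.53 in TRBV16 and 2.02 in TRBV17 against 3.18 and 3.17 over all clonotypes of these segments. They had 0 added bases in 39.5% of 38 rearrangements in TRBV16 and 26.6% of 158 in TRBV17.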

How the data were processed

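Bulk TCR libraries were made from total RNA of sorted liver CD8+ T cells by reverse transcription, per the labels' protocols, and 1 table of TRB clonotypes was deposited for each of the 4 samples. Genotypes and replicate numbers come from the labels. The deposited tables give, per the file headers, a count per CDR3 sequence, with hits for V, D and J. They are whole numbers without normalization. The assembler and the nature of a count, read or molecule, were not given in the sources used here, and mm10 comes from the submitters' processing notes.

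The first V hit was taken where hits were tied (22 of 15739 rearrangements of the 3 segments, 0.140%). Trimming and added bases were read from the deposited alignment points, and without an aligned D segment all bases between V and J counted as added. Usage, frame, J pairing and V-J pairs were tested with edgeR 4.0.16 in R 4.3.3 (quasi-likelihood fits over all TRBV, offsets from library totals, at least 10 clonotypes or counts over the columns, Benjamini-Hochberg adjustment, threshold 0.05), and single values with exact permutation tests over libraries. Frame and J pairing had the library as a block. Alternatives were DESeq2 1.42.0, TMM, no filter, 1-count clonotypes left out, tied V hits left out, sequences within 1 base joined at a count ratio of 20, stop-codon rearrangements added to the reference, dropping clonotypes under 1% of the share they have in another library, equal depth, each library left out, the replicate number as a block and weighting by counts. After seeing the data, a crossed block and out-of-frame J pairing were added. The fits were also run on simulated data with a single fixed spread for each comparison. This does not cover segments that varied more, such as TRBV15 by clonotypes. Python 3.11.15, pandas 2.3.3, numpy 2.4.6, SciPy 1.17.1 and matplotlib 3.10.9 were used.

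The segments, the neighbour list (TRBV13-3, TRBV14, TRBV19, TRBV20) and the tests were chosen with earlier results of these data known. Named TRBJ are those past the threshold, named clonotypes the largest of each segment and library and the 2 with the highest mean share among those in all 4 libraries, and named other TRBV the neighbours and the 2 nearest J profiles. The largest TRBV16 clonotype of 1 library is not reported here.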

Additional observations from a re-analysis of the deposited data

How the results depend on the processing

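The higher in-frame share of TRBV16 passed the test under every alternative run, with log2 ratios of 1.05 to 1.16; TRBV17 turned from -0.05 to 0.0297 when 1-count clonotypes were left out and TRBV15 ranged from 0.04 to 0.29, neither called under any alternative. Without each library in turn, the genotype log2 ratio by clonotypes ranged from -1.02 to 0.12 for TRBV15 and -0.48 to 0.0212 for TRBV16, and the number of the 3 called from 0 to 2. By counts it ranged from -0.93 to 0.69, -0.54 to 0.0748 and -0.15 to 0.21 for TRBV15, TRBV16 and TRBV17, and TRBV16 was at 0.0594 with DESeq2. By out-of-frame clonotypes it ranged from -0.56 to 0.12, -0.14 to 0.22 and -0.18 to 0.16, with TRBV15 at 0.17 without 1-count clonotypes and TRBV17 at 0.0265 with TMM and 0.0354 with DESeq2. With the replicate number as a block TRBV15 by counts was at -0.0942; the block changed no call, with 0 of the 3 segments and 0 V-J pairs called, and same-numbered libraries correlated at 0.155 by clonotypes, -0.273 by counts and 0.434 by out-of-frame clonotypes; with 2 pairs and nothing in the labels, the libraries are taken to share only a number. A crossed block, under which TRBV15 by counts was at -0.0934, called 0 as well. V-J pairs of the 3 segments called between genotypes ranged from 0 to 16 without each library. The in-frame to out-of-frame ratio (Vsig4-deficient minus wild-type) ranged from -1.82 to 1.96 for TRBV15, -3.50 to 3.8 for TRBV16 and -1.07 to 6.95 for TRBV17 without each library. It was -2.41 for TRBV15 without 1-count clonotypes and -0.0176 without tied V hits, and -0.649 for TRBV16 with stop-codon rearrangements added. TRBJ called in TRBV15 numbered 1 without 1-count clonotypes, 4 without tied V hits and 1 to 4 without each library. Weighted by counts, 1, 2 and 4 TRBJ were called in TRBV15, TRBV16 and TRBV17, and TRBJ2-5 in TRBV17 turned to -0.14; out of frame 0, 0 and 1 were called, with TRBJ1-2 in TRBV15 at 0.46 and TRBJ2-2 in TRBV17 at -0.0574. Sequences in 2 or more libraries fell to 1.43%, 3.41% and 8.24% without 1-count clonotypes, and to 1.47% to 2.33%, 3.88% to 4.84% and 7.35% to 9.57% without each library, where fewer libraries are compared. Causes of the other changes were not tested. CDR3 lengths relative to other TRBV, counts per clonotype relative to other TRBV and the share of the 10 largest clonotypes kept their direction under all alternatives run for them. Depth limits TRBV15 and TRBV16, at a median of 1 count per clonotype.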
